A study of Rattus norvegicus with 4 samples.

Results

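Transcripts of 10 genes of T cells and cytotoxic lymphocytes (Ptprc, Cd3d, Cd3g, Cd4, Cd8a, Cd8b, Gzmb, Prf1, Lck and Cd2) were examined in 4 mammary cancers of female Sprague-Dawley rats. The genes were taken as a set by function, and every probe set that the platform annotation assigns to a single member was used. This gave 14 probe sets for the 10 genes, out of 31099 probe sets and 14217 named genes on the array. A further probe set that lists Gzmb together with another gene was left out. The rats were purchased at 5 weeks of age. They had received 1 whole-body carbon-ion dose of 0.5 Gy (290 MeV/u, 6 cm spread-out Bragg peak) at 7 weeks of age and a diet with 23.5% corn oil from 9 weeks of age. All 4 cancers share this treatment, each was hybridised to 1 array, and separate rats of origin are not stated in the labels. No unirradiated tumour or normal gland was analysed here, so the values describe differences between carbon-ion cancers and no effect of irradiation. With a single group and 1 array per tumour, no test of a difference between conditions was possible and no p-value is given.

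T cells recognise peptides through a receptor that signals by way of the CD3 chains, and the kinase LCK, held to the coreceptors CD4 and CD8, phosphorylates those chains. CD8 T cells and natural killer (NK) cells kill target cells by releasing perforin, which opens the target membrane, together with granzymes, which are proteases. In rats CD4 is also carried by macrophages, and the CD8 alpha chain by many NK cells, whereas the CD8 beta chain marks T cells more closely. In mammary tumours these transcripts come mainly from infiltrating cells. Whether a lower signal in whole tumour RNA reflects fewer such cells or less RNA per cell cannot be told apart.

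The promoters of 6 members are shown because these genes carry the patterns described here. Cd3d and Cd3g are neighbouring genes transcribed in opposite directions and both had their lowest signal in tumour 3. Ptprc and Lck lay above the array median in all 4 tumours, and Gzmb and Prf1 did not share the low signal of tumour 3. Each sequence is the 250 bases before the annotated start in the RefSeq annotation of assembly GRCr8, written 5′ to 3′ on the strand of the gene. The positions are Cd3d at chr8:54185269-54185518 (plus strand), Cd3g at chr8:54183919-54184168 (minus strand), Ptprc at chr13:52259747-52259996 (minus strand), Lck at chr5:147183651-147183900 (minus strand), Gzmb at chr15:34462470-34462719 (minus strand) and Prf1 at chr20:29788790-29789039 (plus strand). Capitals mark AGGAAGT, a core bound by ETS factors, and TGTGGT, a core bound by RUNX factors, each searched on both strands (ACTTCCT and ACCACA on the reverse), and no matches overlap in the sequences shown.
Cd3d: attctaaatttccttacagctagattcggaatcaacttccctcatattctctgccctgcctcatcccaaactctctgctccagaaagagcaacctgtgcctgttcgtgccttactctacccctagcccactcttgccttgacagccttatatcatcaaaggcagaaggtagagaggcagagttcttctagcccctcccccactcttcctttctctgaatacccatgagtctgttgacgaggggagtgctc
Cd3g: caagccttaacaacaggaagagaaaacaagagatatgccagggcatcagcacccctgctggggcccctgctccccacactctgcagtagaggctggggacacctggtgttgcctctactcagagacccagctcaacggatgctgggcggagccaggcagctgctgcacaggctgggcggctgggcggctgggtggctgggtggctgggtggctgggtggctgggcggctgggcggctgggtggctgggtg
Ptprc: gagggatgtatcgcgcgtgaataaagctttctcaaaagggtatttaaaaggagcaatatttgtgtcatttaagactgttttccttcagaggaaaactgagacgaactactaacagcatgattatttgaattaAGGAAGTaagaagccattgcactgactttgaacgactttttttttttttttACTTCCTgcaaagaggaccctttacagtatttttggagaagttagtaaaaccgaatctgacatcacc
Lck: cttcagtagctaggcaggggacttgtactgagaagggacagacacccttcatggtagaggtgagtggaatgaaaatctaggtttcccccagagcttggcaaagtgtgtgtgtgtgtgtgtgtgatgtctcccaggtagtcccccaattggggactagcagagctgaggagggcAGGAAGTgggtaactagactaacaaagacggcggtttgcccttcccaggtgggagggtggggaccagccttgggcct
Gzmb: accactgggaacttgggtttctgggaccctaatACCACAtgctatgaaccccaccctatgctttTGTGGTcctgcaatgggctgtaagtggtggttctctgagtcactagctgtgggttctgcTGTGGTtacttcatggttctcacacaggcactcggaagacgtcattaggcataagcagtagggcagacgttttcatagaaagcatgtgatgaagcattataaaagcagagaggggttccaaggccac
Prf1: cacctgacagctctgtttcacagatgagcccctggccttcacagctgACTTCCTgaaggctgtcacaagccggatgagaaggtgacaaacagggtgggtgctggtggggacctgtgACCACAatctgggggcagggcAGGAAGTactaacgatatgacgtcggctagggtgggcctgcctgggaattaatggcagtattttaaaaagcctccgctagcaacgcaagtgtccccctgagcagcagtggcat
The letters AGGAAGT were found in 4 of the 9 member promoters and in 7.08% of 33465 annotated promoters of that length. By gene, these were 3 of the 8 members with an entry (Ptprc, Lck and Prf1). The letters TGTGGT were found in 4 of the 9 member promoters (Cd2, Gzmb, Prf1 and the upstream start of Lck) and in 14.5% of all promoters. For Lck 2 start sites are annotated, both with AGGAAGT before them, and the downstream one is printed. For Cd4 and Cd8b no promoter entry was available, so they were not searched. A match describes the letters of the window and not a bound site.

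Of the 10 genes, Ptprc, Cd4 and Lck exceeded the median signal of the array in all 4 tumours. Signals were compared as log2(value + 16) minus the median of the same array, so that 0 is the array median and 1 is a doubling for bright probe sets; ratios of weak signals are understated. Of all named genes 60.6% met the same rule, as did 44.2% of all probe sets, so 3 of 10 is below the share for the array. Cd3g exceeded the median in 3 tumours and Gzmb in 1 tumour. Cd3d, Cd8a, Cd8b, Prf1 and Cd2 stayed below it in all 4, as did 4034 of 14217 named genes. No detection call was used, so a signal below the array median does not show that a transcript was absent. Of the 14 probe sets, 3 were above the median in all 4 arrays, 3 in some and 8 in none.

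**Figure D1:**
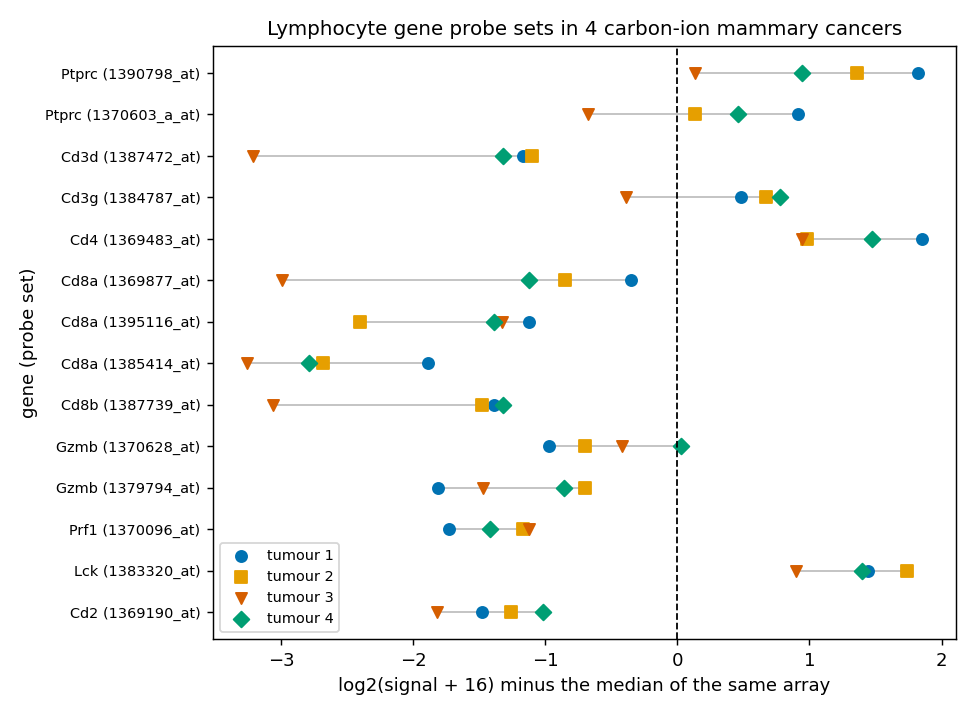
Signal of each of the 14 probe sets in tumours 1 to 4, as log2(signal + 16) minus the median of the same array (horizontal axis), with 1 row per probe set and the dashed line at the array median. The triangles of tumour 3 lie to the left of the other tumours for most rows, by the widest gaps for Cd3d, Cd8b and the brightest probe set of Cd8a, but not for Gzmb and Prf1, nor for the Cd8a probe set that is lowest in tumour 2.

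Most members had their lowest signal in tumour 3. On the brightest probe set of each gene, 8 of the 10 were lowest there, against 18.7% of all named genes and 24.6% of the 6225 named genes whose mean lies within the span of the member means. The other two, Gzmb and Prf1, were lowest in tumour 1. The median difference of tumour 3 from the mean of the other 3 tumours was -0.83 log2 over the 10 genes and 0.08 over all named genes. In 3 members (Cd3d, Cd8a and Cd8b) tumour 3 lay at least 1 log2 below each other tumour, which held for 0.935% of named genes. With a pseudocount of 64, which damps weak signals, the gaps of Cd3d, Cd8a and Cd8b were 0.90, 0.96 and 0.77. Thus 0 members met this there, against 0.274% of named genes. With probe sets averaged the gap of Cd8a was 0.55. A range over the tumours of at least 1 log2 was seen in 5 members (Ptprc, Cd3d, Cd3g, Cd8a and Cd8b), against 21% of named genes and 24.8% of those within the span of the member means. With a pseudocount of 64 the count was 3, against 11.4% of named genes. Without tumour 3, none of the 10 had such a range, against 15.2% of named genes.

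The pairs of tumours show the same split. Tumour 3 differed by at least 1 log2 in 4 members from tumour 1, in 5 from tumour 2 and in 4 from tumour 4, where 10.5%, 5.94% and 7.56% of named genes were that far apart. On the brightest probe sets no member differed by 1 log2 among tumours 1, 2 and 4, whereas 8.43% of named genes did so between tumours 1 and 2, 9.45% between tumours 1 and 4, and 6.25% between tumours 2 and 4. Gzmb came closest, at 0.99 between tumours 1 and 4, and was at 1.09 with a pseudocount of 1 and at 1.01 over the median of named probe sets. The second probe set of Gzmb and the Cd8a probe set lowest in tumour 2 did differ by over 1 log2 between tumours 1 and 2. The highest tumour was not a constant one. It was tumour 1 in 3 members (23% of named genes), tumour 2 in 2 (28.9%), tumour 3 in 1 (30.2%) and tumour 4 in 4 (18%).

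**Figure D2:**
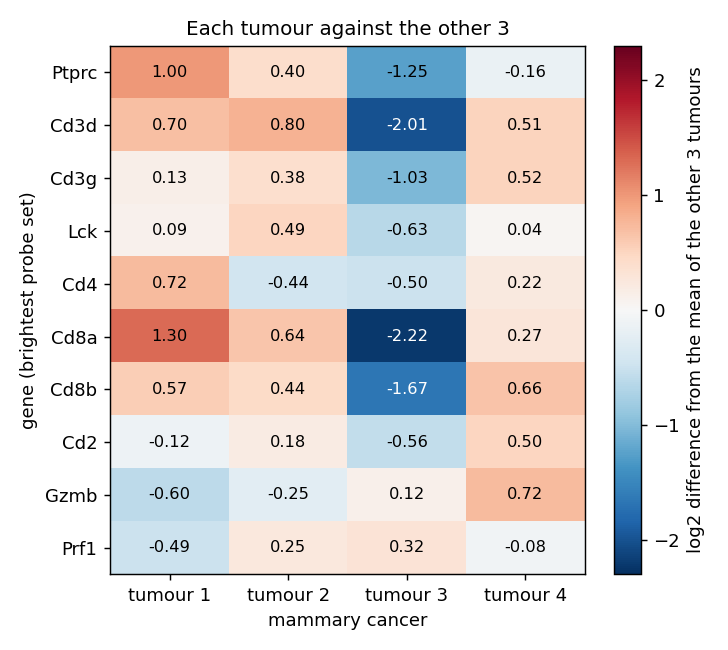
Difference of each tumour (columns) from the mean of the other 3 (log2, colour and printed value) for the brightest probe set of the 10 genes (rows). The column of tumour 3 runs from -2.22 for Cd8a to -0.50 for Cd4 over 8 genes and is at 0.12 and 0.32 for Gzmb and Prf1.

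Ptprc encodes CD45, a phosphatase on the surface of all nucleated blood cells, and was the member with the clearest grading between tumours. The signal of its brightest probe set was 821, 548, 222 and 435 in tumours 1 to 4. On the log2 scale over the array median these are 1.82, 1.36, 0.13 and 0.94, with a mean of 1.06 ± 0.72 (SD, n = 4). Tumour 3 was thus barely above the array median and 0.81 log2 below the next tumour, and tumour 1 was 0.45 above the next. The second probe set gave 432, 224, 120 and 308, again with tumour 1 highest and tumour 3 lowest, and it lay under the array median in tumour 3 (-0.68). The finding that Ptprc exceeds the median in all 4 tumours was lost when its 2 probe sets were averaged or when the median was taken over named probe sets alone.

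The CD3 chains carry the signal of the T-cell receptor into the cell. Cd3g, the gamma chain, had signals of 317, 333, 151 and 387 in tumours 1 to 4, which lie 0.48, 0.67, -0.39 and 0.78 log2 from the array median (0.39 ± 0.53, SD, n = 4). Tumours 1, 2 and 4 were within 0.29 log2 of each other, and tumour 3 was 0.87 below the nearest of them. Cd3d, the delta chain, had signals of 89.7, 86.4, 7.60 and 78.4, with the log2 values at -1.17, -1.10, -3.21 and -1.32 (-1.70 ± 1.01, SD, n = 4). Its signal in tumour 3 was brighter than or equal to that of only 5.8% of probe sets on the array. The deposited signals differ 11.81-fold between tumours 1 and 3. After the pseudocount and the shift to the array median tumour 2 was highest, 4.31-fold above tumour 3. At so weak a signal neither size is well measured. Each of the genes has 1 named probe set, so neither has a second reading.

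The epsilon chain gene Cd3e, named here after its values were seen, gave a reading of the same complex from another gene. Its signals were 188, 169, 67.6 and 199 on the brighter probe set and 202, 150, 15.8 and 217 on the other. Both probe sets were lowest in tumour 3, and tumours 1, 2 and 4 were within 0.12 log2 of each other on the brighter one. The zeta chain gene Cd247, also named after its values were seen, varied less, with 225, 174, 162 and 257 on the brighter probe set. The other gave 176, 181, 104 and 188, or -0.31, -0.16, -0.86 and -0.20 log2 from the array median. Both were lowest in tumour 3.

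Lck encodes the kinase that starts signalling at the receptor, and was above the array median throughout. Its signal was 629, 716, 389 and 606 in tumours 1 to 4, or 1.44, 1.74, 0.90 and 1.40 on the log2 scale (1.37 ± 0.35, SD, n = 4). Tumour 3 was 0.51 below the next tumour, and the range of 0.84 did not reach 1 log2. Cd2, an adhesion receptor of T and NK cells, was under the median in all 4 tumours, with signals of 69.3, 75.7, 45.8 and 100.1. It was lowest in tumour 3 and highest in tumour 4, and the gap of tumour 3 to the next was 0.34 log2.

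The coreceptors did not share 1 pattern. Cd4 had signals of 842, 417, 401 and 638, or 1.85, 0.98, 0.94 and 1.47 over the array median (1.31 ± 0.43, SD, n = 4). Tumours 2 and 3 differed by 0.05 log2, so that tumour 3 did not stand apart for this gene, and tumour 1 was highest. Cd8b, the beta chain of CD8, had signals of 75.1, 62.6, 10.05 and 78.5, with tumours 1, 2 and 4 within 0.16 log2 and tumour 3 lower than the nearest by 1.58. Its log2 mean was -1.81 ± 0.84 (SD, n = 4).

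The 3 probe sets of Cd8a, the alpha chain, disagreed. The brightest gave 170, 106, 11.4 and 92.0, with tumour 3 lowest by 1.87 log2, and the weakest gave 48.1, 18.3, 6.68 and 17.97, also lowest in tumour 3. The third gave 93.3, 25.4, 70.7 and 73.7, lowest in tumour 2, with tumour 3 0.31 above the mean of the others. Tumour 1 was highest on all 3. With the probe sets averaged, the difference of tumour 3 from the mean of the others was -0.91 in place of -2.22. All 3 were under the array median in every tumour, so the size of the difference in Cd8a is uncertain.

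The genes of the killing machinery differed from the receptor genes. Gzmb, the protease granzyme B, had signals of 106, 119, 146 and 223 in tumours 1 to 4 on its brightest probe set, or -0.97, -0.70, -0.42 and 0.03 log2 (-0.52 ± 0.42, SD, n = 4). The second gave 52.0, 119, 62.8 and 114. Tumour 1 was lowest on both, while the place of tumour 3 differed, above tumours 1 and 2 on the first and below tumours 2 and 4 on the second. Prf1, which encodes perforin, had signals of 55.9, 81.2, 84.2 and 72.1, all under the array median, with a range of 0.61 log2 (-1.36 ± 0.28, SD, n = 4). Its lowest tumour was again tumour 1 and its highest tumour 3, 0.05 above tumour 2.

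The genes around these members were followed in 11 further lists. Of 28 genes of T-cell receptor signalling, 24 were measured. Of these, 5 exceeded the array median in all 4 tumours (60.6% of named genes) and 14 in none (4034 of 14217). In 14 of the 24 tumour 3 was lowest (18.7% of named genes), and 8 had a range of at least 1 log2 (21%). The latter count was 2 without tumour 3 and 5 without tumour 4, where 15.2% and 15.5% of named genes had that range. The median difference of tumour 3 from the others was -0.47 (-0.31 without tumour 1). The 5 above the median throughout were Fyn, a kinase related to Lck, Ptpn6, a phosphatase of leukocytes, and the widely expressed Csk, Nck1 and Plcg1. Fyn had signals of 1098, 621, 455 and 578, highest in tumour 1 and lowest in tumour 3, and Ptpn6 had 731, 480, 354 and 446 in the same order of extremes. Csk, the kinase that restrains Lck, was slightly higher in tumour 3 than the mean of the others, by 0.21. The adaptor gene Fyb1 and the receptor gene Cd6, named after their values were seen, differed from the others in tumour 3 by -1.25 and -1.88.

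Of 32 genes of T-cell costimulation, checkpoints, cytokine receptors and lineage factors, 20 were measured. Tumour 3 was lowest in 10 (18.7% of named genes), and 7 had a range of at least 1 log2 (21%). That count was 4 without tumour 1 or without tumour 3, where 12.6% and 15.2% of named genes had that range. The array median was exceeded in all 4 tumours by 5 genes (60.6% of named genes), or by 8 without tumour 3 (61.5%). The median difference of tumour 3 was -0.43. Il2rg, the shared gamma chain of interleukin receptors, had signals of 578, 333, 242 and 452. The adhesion receptor gene Cd44, which epithelium also expresses, had 1359, 634, 422 and 507, and the transcription factor gene Lef1 had 1700, 1702, 1050 and 1635. All 3 were lowest in tumour 3. Tcf7, a factor of T cells, was lowest in tumour 4, with 643, 404, 366 and 323. Cd7 stood out in tumour 4, with 1749 against 420 to 505. Cd52, a lymphocyte surface peptide named after its values were seen, ran the other way in tumour 3, with 103, 71.2, 944 and 315.

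**Figure D3:**
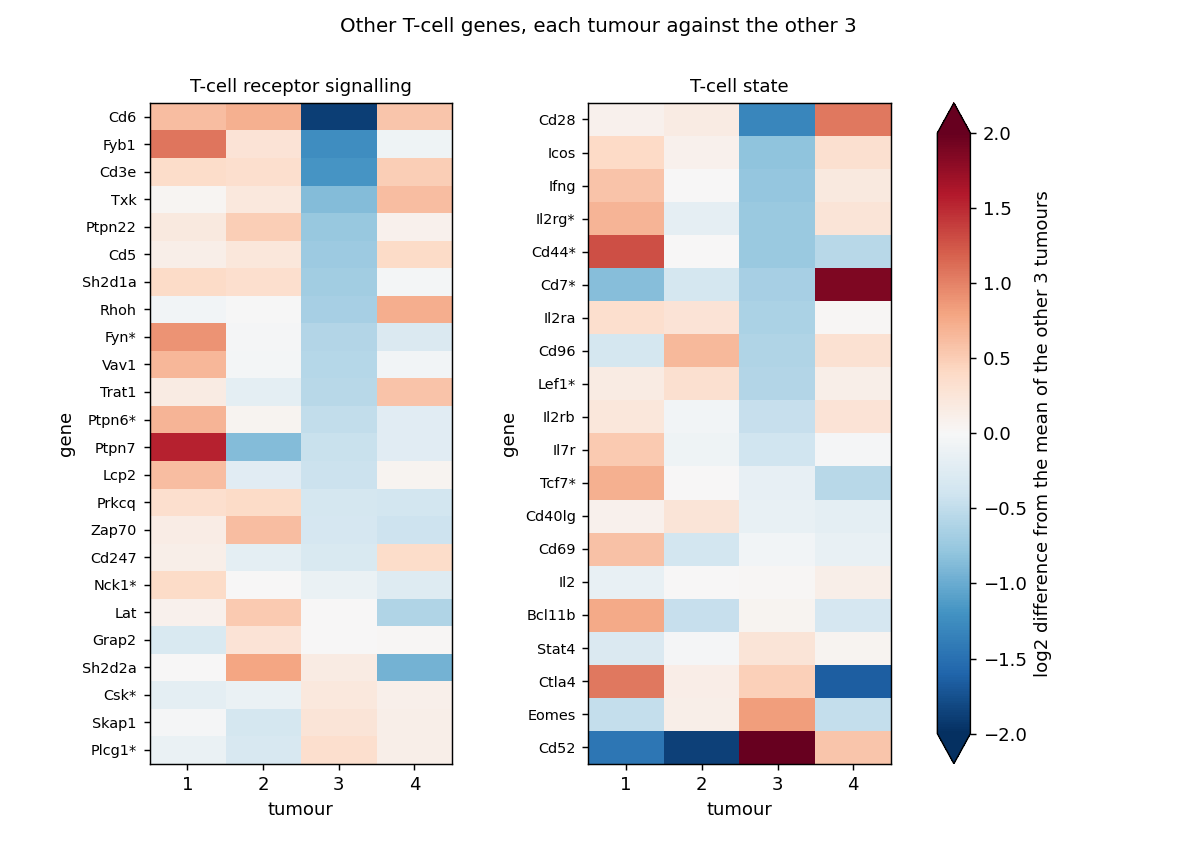
Difference of each tumour (columns) from the mean of the other 3 (log2, colour; arrows mark values past the colour limits) for the genes of T-cell receptor signalling (24) and T-cell state (20), ordered by the value in tumour 3; an asterisk marks genes above the array median in all 4 tumours. The column of tumour 3 is below 0 for 19 of 24 and 14 of 20 genes (5669 of 14217 named genes), and Cd52 is the clearest exception.

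In tumour 3 the differences of the NK and cytotoxic granule list lay near those of the array as a whole. Of its 28 measured genes, 7 exceeded the array median in all 4 tumours (60.6% of named genes) and 15 in none (4034 of 14217). Of 28 measured genes 6 were lowest in tumour 3 and 13 in tumour 1, where 18.7% and 38% of named genes were lowest, and the median difference was 0.05 in tumour 3 (-0.09 without tumour 1) and -0.29 in tumour 1 (-0.16 without tumour 4). In all named genes these medians were 0.08 and -0.09. Serpinb9, an inhibitor of granzyme B, had signals of 1237, 4006, 4983 and 3708, and Tnfsf10, the death ligand TRAIL, had 823, 2087, 2790 and 1985. Both were lowest in tumour 1 and highest in tumour 3. Ctsc, the protease that activates granzymes, showed the opposite order, with 5136, 2945, 2348 and 3837. Of 17 luminal epithelium markers, 15 were also lowest in tumour 1 (38% of named genes) and 8 highest in tumour 3 (30.2%). The part of epithelium in the signals of Serpinb9 and Tnfsf10 was not tested. Klrk1, the activating receptor NKG2D, had 426, 235, 362 and 484 and was lowest in tumour 2. Srgn, the granule proteoglycan, and Lamp1, a lysosomal membrane protein, varied by 0.54 and 0.35 log2.

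Genes of other leukocytes were low in tumour 3 as well. Of 17 measured pan-leukocyte genes 15 were lowest in tumour 3 (18.7% of named genes). All 17 were below the mean of the others there, as were 5669 of 14217 named genes. The median difference of the 17 in tumour 3 was -0.70. In tumour 1 the median difference was 0.59 (0.29 without tumour 3) and 13 of the 17 were highest (23% of named genes). Cd53, a tetraspanin of leukocytes, had 1421, 647, 352 and 812, and Itgal, an integrin of leukocytes, 1010, 562, 286 and 621. The actin-bundling gene Lcp1 varied little, with a range of 0.24 log2. Of 23 measured macrophage and myeloid markers, 19 were lowest in tumour 3 (18.7% of named genes) and 18 highest in tumour 1 (23%). The median differences were -0.81 in tumour 3 (-0.53 without tumour 1) and 0.88 in tumour 1. The summed signal of that list was 42768, 25324, 18996 and 27170 in tumours 1 to 4, and the lowest signal of a member was 14.45, for Itgam, named for that value. The part of macrophages in the signals of Ptprc and Cd4, which they also express, was not tested.

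Luminal epithelium markers were present in every sample, with 16 of 17 above the array median in all 4 tumours (60.6% of named genes). Foxa1, named after its values were seen, was the exception. The summed signal of the 17 markers was 41993, 72162, 82360 and 73397, highest in tumour 3 and lowest in tumour 1. The part of a differing share of epithelium in the lymphocyte signals was not tested. The B and plasma cell list (13 measured genes) had summed signals of 16697, 5183, 6453 and 8775, with Fcrla making up 8947 of the sum in tumour 1. The second probe set of Fcrla was weak, at 58.8, 62.5, 28.2 and 39.2. Without Sdc1, the brightest gene of the list over the 4 tumours, the sums were 12272, 1418, 1429 and 3909. Jchain had 1953, 151, 86.2 and 1699. In tumour 3, 5 genes of the list were lowest (18.7% of named genes). Lymph node stroma genes (11 measured) summed to 4757, 2951, 1844 and 2640, with Cxcl13, a chemokine for B cells, at 1553, 413, 101 and 326. Mast cell genes (9 measured) summed to 4204, 3737, 2282 and 2992, of which Kit, which other cells also make, gave 2656, 1914, 1123 and 2221. Without Kit the sums were 1548, 1822, 1159 and 771, and 7 of the 9 genes were lowest in tumour 4 (28.7% of named genes) against 2 in tumour 3 (18.7%). Neutrophil genes (8 measured) summed to 12901, 11818, 14063 and 12681, most of it from Lcn2, which epithelium also makes. Without Lcn2 the sums were 1383, 273, 196 and 597, and 5 of the 8 genes were lowest in tumour 3, with median differences of -1.08 there and 1.2 in tumour 1. The part of these cells in the lymphocyte signals was not tested. No marker in these lists had a signal of 0.

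**Figure D4:**
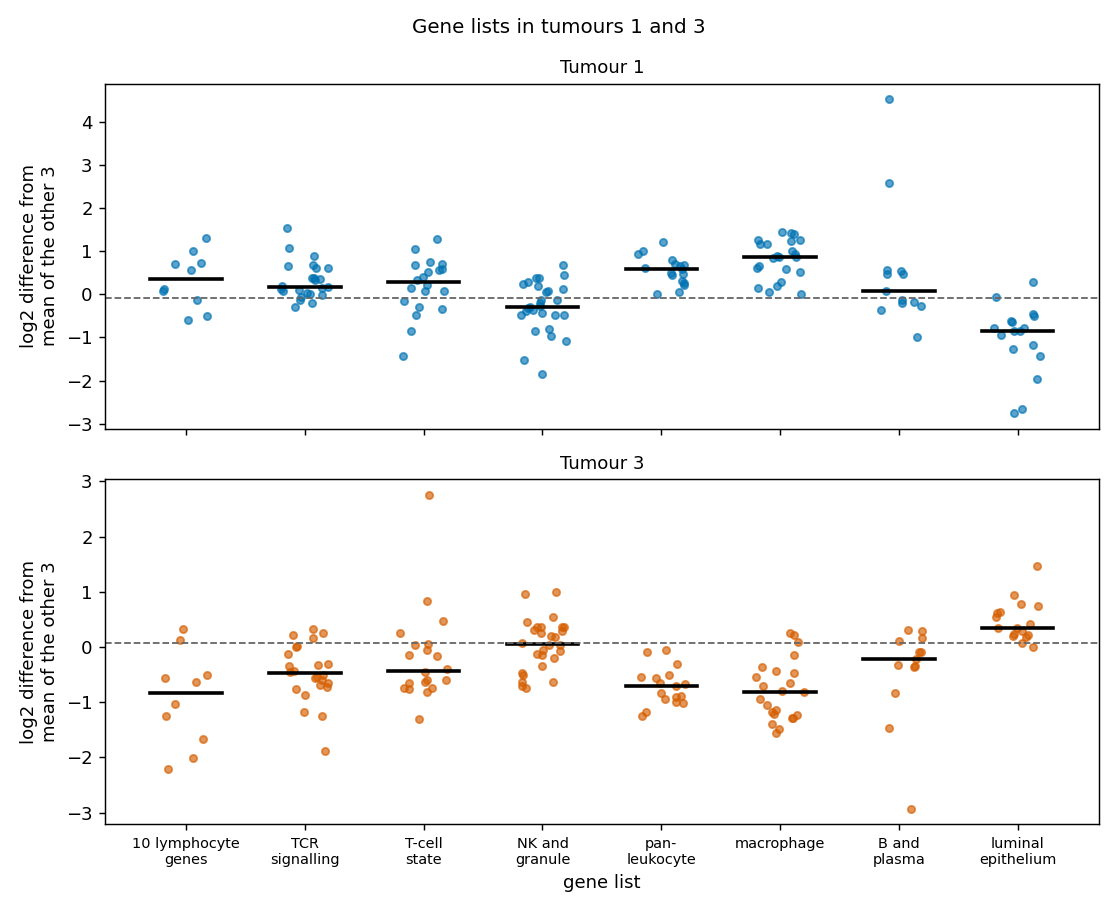
Difference of tumour 1 (upper panel) and tumour 3 (lower panel) from the mean of the other 3 tumours (log2), with 1 point per gene, black bars at the median of each list and a dashed line at the median of all named genes (-0.09 and 0.08). In tumour 3 the 10 lymphocyte genes (-0.83), pan-leukocyte (-0.70) and macrophage genes (-0.81) lie below the line and luminal genes (0.35) above it, while NK and granule genes (0.05) lie on it.

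The genes whose pattern over the 4 tumours was most like that of Ptprc were sought among 813 genes outside the lists that exceeded the array median in all 4 tumours and had a range of at least 1 log2. Likeness was the largest difference, over the 4 tumours, between the deviations of both genes from their own means. The 8 closest were Epsti1, Ccdc88c, Mustn1, Smpdl3a, Pincl, Irf8, RT1-Db1 and Herc6, with largest differences of 0.14 to 0.20 log2. Epsti1 had signals of 1786, 1069, 523 and 954, and the MHC class II gene RT1-Db1 had 3989, 2913, 1232 and 2721. On the same measure the other members differed from Ptprc by 0.57 (Cd3d) to 1.2 (Gzmb). Laptm5, Itgal, C1qb, Coro1a, Cd53 and Rac2, leukocyte and macrophage genes of the lists picked for this comparison, differed by 0.26 to 0.42. With 4 tumours many genes can share an order, so likeness is given as a description only.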

How the data were processed

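Transcripts were measured on 1-colour oligonucleotide arrays, 1 for each of the 4 tumours. The deposited table holds linear intensity values of 31099 probe sets as the authors gave them, and which software, background correction or scaling they used is not given in the sources here. After trimming 2% from each end the mean was 500.1 on all arrays, with medians from 201.8 to 221.9. Precision is limited by the number of arrays, of which no 2 were identical. RNA was labelled from an oligo-dT primer, per the labels' protocols, which favours the 3′ end.

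Intensities were transformed as log2(value + 16) and set against the median of the same array; the array medians differed by at most 0.13 log2. Probe sets were named from the platform annotation. It lists 21262 probe sets besides controls, of which 20826 name 1 gene and 436 several, and the latter were left out. Of the 20826, 20758 gene identifiers had an entry in the GRCr8 RefSeq table, with symbols unaltered. The brightest probe set by mean stood for a gene. Of 229 further list genes, 186 were measured. The members and lists were chosen with earlier results of these data known.

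Named were all members, from each of 5 T-cell, NK, pan-leukocyte and antigen-presentation lists up to 5 genes of largest range above the median plus the 2 of highest mean, from each other list the 3 of highest mean, and the 8 genes nearest to Ptprc; the text gives a selection, and names added later are marked. The scripts were tested on simulated data. Python 3.11.15, numpy 2.4.6, pandas 2.3.3 and matplotlib 3.10.9 were used. Alternatives were other pseudocounts, scalings, probe-set rules, a filter and leaving out each tumour.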

Additional observations from a re-analysis of the deposited data

Results flagged for a closer look

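Of 26 sets of 4 values checked for a tumour far from the rest (14 probe sets and 12 list medians), 3 stood out. Chance alone gives about 1 in 20 for independent, normally distributed sets. Some sets here come from the same gene or the same values, so the count cannot be judged against that rate. The lone probe set of Cd3d had tumour 3 far below the others, with the gap taking up 0.90 of the whole range. That of Cd8b had tumour 3 far below as well, with a gap of 0.91 of the range. The median level of the NK and cytotoxic granule list was set apart in tumour 4, which was highest by 0.94 of the range. That share gives no size in log2. Taken gene by gene, the list hardly differed in tumour 4, with a median difference of -0.01 (-0.06 in all named genes). Tumour 4 fell short of the average of tumours 1 to 3 for 15 of the 28 genes (8242 of 14217 named genes). It was the highest tumour for 8 of the 28 (18% of named genes). Cd3d and Cd8b lay under the array median in all 4 tumours, and their signals in tumour 3, 7.60 and 10.05, were below the pseudocount of 16. No cause was tested.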

How the results depend on the processing

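The lowest tumour of each member was the same under pseudocounts of 1 and 64, the values as deposited, quantile normalization, averaged probe sets and the median of named probe sets. Sizes depended more on the settings. With a pseudocount of 64 the members with a range of at least 1 log2 numbered 3 in place of 5 (11.4% of named genes). Genes of T-cell receptor signalling with that range numbered 4 and those of the NK list 5. The median differences of the 10 members were 0.18 in tumour 1 and -0.70 in tumour 3. A pseudocount of 1 gave 11 T-cell state genes with such a range (26.9% of named genes). The median of named probe sets left 3 T-cell state genes above it in all 4 tumours (51.8% of named genes). Keeping genes of at least median mean level left 4 members, all lowest in tumour 3 (13.9% of named genes) and 2 with a range of at least 1 log2 (13%). In the receptor signalling, T-cell state and NK lists 2, 4 and 3 genes had that range, and 2, 6 and 1 were lowest in tumour 3. The receptor signalling median in tumour 1 was 0.53. The filter leaves fewer genes, a larger pseudocount damps weak signals and a smaller one damps them less, and the named probe sets set another threshold. Leaving out 1 tumour gave 0 to 5 members with that range (0 without tumour 3), 2 to 7 receptor signalling and 4 to 7 T-cell state genes. It gave 4 to 8 NK (4 without tumour 1 or 2) and 2 to 8 pan-leukocyte genes (2 without tumour 1 or 3). Above the median were 5 to 8 T-cell state genes. The shares of named genes were 12.6% to 17.1% with that range and 61.2% to 62% above the median. The median difference of the members in tumour 1 ran from -0.06 (without tumour 3) to 0.61, and that of the NK list from -0.25 to -0.16 in tumour 1 and from -0.09 (without tumour 1) to 0.13 in tumour 3. Gzmb in tumour 3 (0.12) was at -0.11 with probe sets averaged and ran from -0.09 (without tumour 1) to 0.41 (without tumour 4). No paired analysis was possible because there is only 1 group.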

Other observations

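Genes that present antigen to CD8 T cells, and chemokines that attract T cells, were mixed. Of 18 measured genes of that list, 10 exceeded the array median in all 4 tumours (60.6% of named genes). In 6 tumour 3 was lowest and in 9 tumour 1, where 18.7% and 38% of named genes were lowest, and the median difference of tumour 3 was 0.04. Tap2, a peptide transporter subunit, had signals of 795, 1307, 1677 and 1052 in tumours 1 to 4, and Psmb9, a subunit of the immunoproteasome, 3632, 5842, 6219 and 4998. Both were highest in tumour 3. The chemokines Cxcl9 and Cxcl11, which bind the chemokine receptor CXCR3 of T cells, had 291, 442, 658 and 803 and 272, 284, 439 and 691, so that tumours 3 and 4 were the higher ones. The third ligand of that receptor, Cxcl10, went the other way with 367, 228, 122 and 173, and the receptor gene Cxcr3 had 153, 177, 95.8 and 187. Both were lowest in tumour 3, as were Tap1, Ccl2, Ccl3 and Cx3cr1, and these 6 were named after their values were seen. Tap1 hardly varied, with a range of 0.16 log2, whereas the ranges of Ccl2, Ccl3 and Cx3cr1 were 2.97, 0.95 and 0.84.

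The probe set that lists Gzmb together with another gene had signals of 19.1, 33.7, 0.712 and 39.9, lowest in tumour 3 and weak in every tumour, and cannot be assigned to either gene.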
